A study of Mus musculus with 50 samples.

Results

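The wound beds of 6 mouse digits, each sampled 24 hours after amputation, were compared: 3 intermediate digits and 3 non-regenerative digits, out of 50 samples in the series. The members were chosen from their labels alone, which give the group, the time, the amputation level as a percentage of the distal phalanx, the animal's mark and a date. The intermediate digits were labelled 41%, 50% and 52% and the non-regenerative digits 63%, 68% and 73%, and each digit is named here by its level. All were from young adult male C57Bl/6 mice, and the labels name no further allele or agent for either group. The distal phalanx (P3) of the third hindlimb digit was cut, and tissue around the wound bed was taken as a mixture of cell types. The 63% digit carries the non-regenerative label although its level lies below the bound that the methods set for that class. It lies inside the range that they set for intermediate digits. Some non-regenerative digits of other times used below also lie under that bound, such as 62% at 0 hours and 64% at 12 hours. The 41%, 63% and 73% digits carry an earlier date (day 13 of month 8, 2015) and the 50%, 52% and 68% digits a later one (day 3 of month 12, 2015), and the labels do not say what the date records. Animal marks differ within each date, but the labels do not state that each digit came from its own animal, so p-values measure the spread between these 6 digits.

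The outcome of a cut through the terminal phalanx depends on how much of the bone and of the nail organ is lost: a distal cut can be followed by regrowth, a proximal one heals with a scar. The nail matrix and hair follicles make hard keratins, which are cross-linked by keratin-associated proteins. At a fresh wound the keratinocytes of the edge switch to other keratins (Krt6a, Krt6b, Krt16 and Krt17), deposit laminin chains, move over the wound on integrins and open the fibrin clot with plasminogen activators and metalloproteinases, while neutrophils and then macrophages enter the bed.

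Between 5581361 and 10862504 expected counts were assigned to genes per digit, and 13024 of 21954 genes passed the low-count filter. Of the markers of other cell types, 18 of 20 macrophage genes, 18 of 23 neutrophil genes, 17 of 17 endothelial genes and 13 of 13 suprabasal epidermis genes were measured, against 3 of 18 skeletal muscle genes, 2 of 16 T and NK cell genes and 0 of 8 B cell genes. All 6 digits had counts for 4 of 4 Y-linked genes. In bulk tissue, fewer cells of a type and less RNA per cell cannot be told apart.

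By mean distance, the label date separated the digits more than the group did, but the ranges of single pairs overlapped. The mean distance between digits was 1 minus Spearman's correlation of log2 counts scaled to library size. It was 0.0293 for the 2 pairs of the same group and date and 0.0443 for the 4 pairs of different groups on the same date. It was 0.0545 for the 4 pairs of the same group on different dates and 0.071 for the 5 pairs that differed in both. The 50% and 52% digits were the closest pair, at 0.0232. The 41% digit lay closer to the 63% digit (0.0309) than to the 50% digit (0.0789) or the 52% digit (0.0595). The 68% digit lay closest to the 63% digit (0.0266) and the 41% digit (0.0397), both of the other date. It lay further from the 52% digit (0.0415) and the 50% digit (0.0581) of its own date. Single pairs ranged from 0.0309 to 0.0581 for different groups on the same date. For the same group on different dates they ranged from 0.0266 to 0.0789. Between the dates, 157 genes passed the test in edgeR's quasi-likelihood fit with group and date as terms, 1.21% of the genes tested, and 2282 genes (17.5%) had an unadjusted p under 0.05. The date is therefore a term of each test below, and each difference is also given within the earlier date (41% against 63% and 73%) and within the later date (50% and 52% against 68%).

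Between intermediate and non-regenerative digits, 1 gene passed (0.00768% of those tested) at a Benjamini-Hochberg adjusted p under 0.05 and a more than 2-fold change. At an unadjusted p under 0.05, 644 genes (4.94%) were higher and 696 genes (5.34%) were lower in intermediate digits. DESeq2, given the same counts and terms, called 77 genes higher (0.591%) and 51 lower (0.392%). Each intermediate digit lay above each non-regenerative digit of its own date in 2080 genes (16.0%) and below in 2057 genes (15.8%). Across both dates the groups did not overlap in 1179 genes with intermediate digits higher and in 1113 with them lower, of 13024 tested. The count rested on single digits: edgeR called 238 genes without the 41% digit (82 higher, 156 lower), 1 gene without the 73% digit and 0 without the 50%, 52%, 63% or 68% digit. With date as a term, the fit without the 41% digit compares the groups only within the later date. The fit without the 68% digit compares them only within the earlier date. Values given below without either of these digits therefore largely restate the within-date differences. Values called higher or lower below are thus levels and fitted differences with their errors, and the tool is named wherever a gene passed.

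The gene that passed was Gm11567 (ENSMUSG00000059845, chr11:99879187-99880229, mm10), a protein-coding gene with a placeholder name that lies among the keratin-associated protein genes of chromosome 11. Its normalized counts were 15.5, 229.8 and 209 in the 41%, 50% and 52% digits and 0, 5.28 and 0 in the 63%, 68% and 73% digits. The groups did not overlap, as for 1179 of the 13024 genes tested in this direction, and the 41% digit was far below the other intermediate digits. The fitted log2 difference was 5.50 ± 0.54 (SE; edgeR adjusted p = 0.0441, DESeq2 adjusted p = 3.19e-10), a value that depends on how counts of 0 are treated.

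The hard keratins and their associated proteins led the genes that were higher in intermediate digits. The regions just before the starts of Gm11567, of the 3 named keratin-associated genes and of a pair of hair keratin genes of the same chromosome are printed here because they were chosen for holding the same motif at a like position. Each run is the 80 bases before the gene start in RefSeq (GRCm38.p6), on the strand of the gene, with TATAAA in capitals.
Krtap3-2 (chr11:99556854-99556933, minus strand): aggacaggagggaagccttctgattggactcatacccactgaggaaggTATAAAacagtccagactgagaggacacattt
Krtap3-1 (chr11:99566631-99566710, minus strand): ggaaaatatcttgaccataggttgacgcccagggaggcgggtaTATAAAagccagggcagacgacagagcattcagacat
Krtap1-4 (chr11:99583678-99583757, minus strand): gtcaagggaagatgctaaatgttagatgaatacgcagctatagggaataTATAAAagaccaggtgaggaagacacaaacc
Gm11567 (chr11:99879107-99879186, plus strand): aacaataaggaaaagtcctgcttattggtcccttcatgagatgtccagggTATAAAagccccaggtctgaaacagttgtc
Krt34 (chr11:100041555-100041634, minus strand): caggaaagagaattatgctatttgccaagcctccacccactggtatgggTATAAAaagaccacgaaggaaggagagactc
Krt31 (chr11:100050552-100050631, minus strand): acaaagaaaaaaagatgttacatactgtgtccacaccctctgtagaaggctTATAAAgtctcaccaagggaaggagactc
In these 6 genes the motif began 29 to 37 bases before the start. TATAAA was searched on the gene's own strand, beginning 40 to 20 bases before the start, and was held by 7 of 9 keratin-associated genes (77.8%), 3 of the 7 hard keratin genes matched to the promoter table (42.9%), 209 of the 10013 matched genes among those tested (2.09%) and 650 of all 27025 promoters in the table (2.41%). Of the keratinocyte migration genes, 2 of the 13 matched held it (15.4%). A match describes the letters only.

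Of 12 hard keratins tested, 12 were higher in intermediate digits and 10 had an unadjusted p under 0.05, with a median log2 difference of 2.02 against -0.005 over all genes tested. DESeq2 called 4 of the 12, and edgeR 0. Krt81, a type II hair keratin, had 2487, 7583 and 7502 normalized counts in the 41%, 50% and 52% digits and 1077, 1001 and 1007 in the 63%, 68% and 73% digits. The groups did not overlap, as for 1179 of the 13024 genes tested in this direction, and the naming rule required separation within each date. The log2 difference was 2.08 ± 0.35 (SE; edgeR adjusted p = 0.214, DESeq2 adjusted p = 2.27e-07). Krt34, a type I hair keratin whose start region is shown above, had 625, 2827 and 2825 normalized counts against 368, 375 and 230.4, a log2 difference of 2.0 ± 0.41 (edgeR adjusted p = 0.224, DESeq2 adjusted p = 8.33e-05). In both genes the 41% digit lay between the later intermediate digits and the non-regenerative ones.

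In the hard keratins the 41% digit stood much closer to the non-regenerative digits of its date than the 50% and 52% digits did to theirs, although 10 of the 12 were higher in it. Krt35, made early in the hair shaft, had 46.6, 1346 and 1254 normalized counts in the 41%, 50% and 52% digits and 48.4, 36.1 and 51.5 in the 63%, 68% and 73% digits. Its log2 difference was -0.10 on the earlier and 5.10 on the later date, and the term for a group difference that depends on date passed (5.26, edgeR adjusted p = 0.00628). The 41% digit was slightly higher than its neighbours for Krt33b (641, 4389 and 4689 against 555, 389.7 and 518) and Krt31 (869.6, 4665 and 4933 against 572, 479 and 712), with terms of 3.29 (adjusted p = 0.0123) and 2.88 (adjusted p = 0.0231). Reads of Krt33b may be shared with its near-identical copy Krt33a, and reads of one keratin-associated gene with others of its family. Over the list, the median was 0.50 within the earlier and 3.41 within the later date. The fit without the 68% digit, which rests on the earlier date alone, gave 0.48. The fit without the 41% digit, which rests on the later date alone, gave 3.42.

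Of 16 keratin-associated proteins and hair factors tested, 16 were higher in intermediate digits and 11 had an unadjusted p under 0.05 (median log2 difference 1.73; 0.81 on the earlier and 2.47 on the later date). DESeq2 called 7 of the 16. Krtap3-2 (chr11:99555823-99556853) had 568, 2578 and 3518 normalized counts against 246, 581 and 214. The 41% digit lay just under the 68% digit but above both digits of its own date, and the log2 difference was 1.86 ± 0.28 (SE; edgeR adjusted p = 0.19, DESeq2 adjusted p = 1.56e-07). Krtap3-1 had 334, 858 and 1275 against 188, 332 and 152, a log2 difference of 1.34 ± 0.25 (edgeR adjusted p = 0.214). Krtap1-4 was low in non-regenerative digits, with 115, 280.2 and 212 against 14.3, 12.3 and 0, a log2 difference of 4.06 ± 0.62 (edgeR adjusted p = 0.19, DESeq2 adjusted p = 0.0428). Lef1, the transcription factor of Wnt signalling that acts in the hair matrix, had 12.9, 65.3 and 69.2 against 1.79, 9.68 and 4.07, a log2 difference of 2.54 ± 0.61 (edgeR adjusted p = 0.259, DESeq2 adjusted p = 0.0204).

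Sebaceous gland and lipid genes, markers of another part of the follicle, were also higher in the fit over both dates. Of 11 such genes 7 were tested and 7 were higher, with a median log2 difference of 1.1 (0 on the earlier and 1.78 on the later date), and their summed level was 531 to 1565 CPM (counts scaled to a common library total) in intermediate and 436 to 507 in non-regenerative digits. How many follicles or how much nail matrix each sample held was not measured, and its part in the result was not tested.

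**Figure D1:**
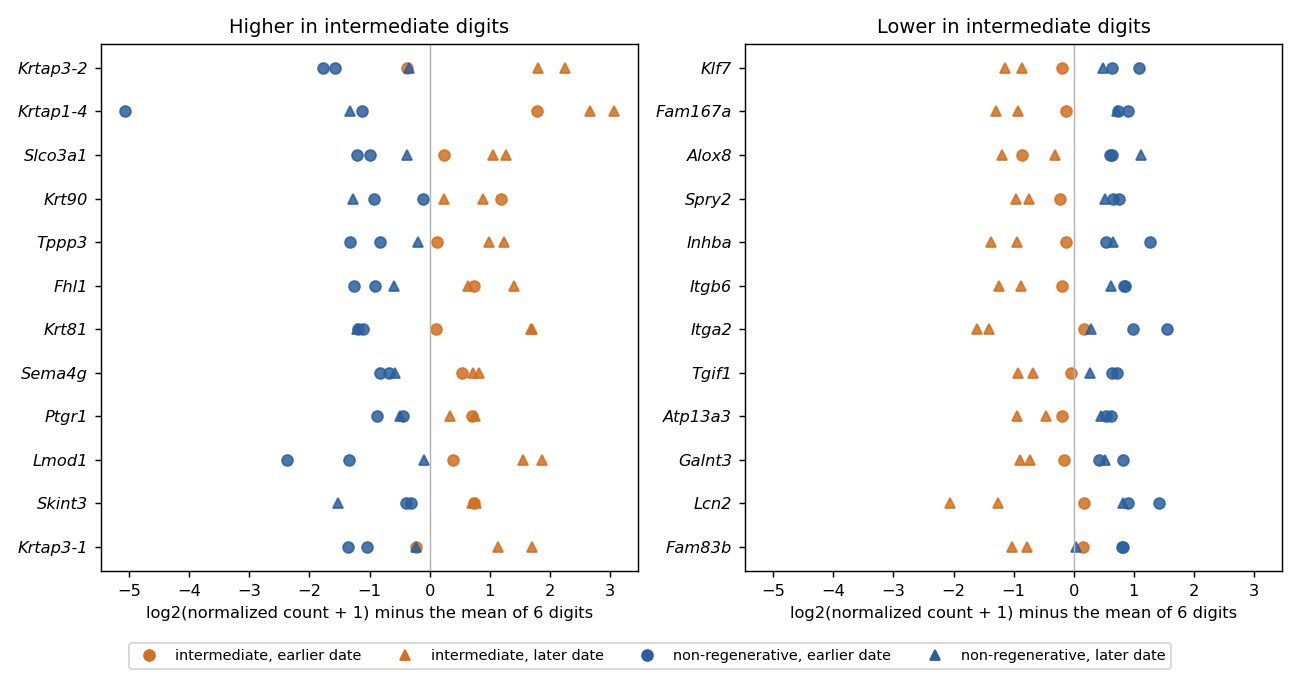
Level of the 24 named genes in each digit, as log2(normalized count + 1) minus the mean of the 6 digits. Circles are the earlier and triangles the later date, orange is intermediate and blue non-regenerative. Apart from Krtap3-2 and Fam83b, in which a digit of each group crossed, the orange and blue points of a gene did not overlap. Separation within each date was required by the naming rule.

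Other genes named by the smallest p among those higher were not hair keratins. Krt90, a type II keratin, had 8674, 4482 and 7046 normalized counts in the 41%, 50% and 52% digits and 2009, 1566 and 3547 in the 63%, 68% and 73% digits, and here the 41% digit was the highest of the 6. Its log2 difference was 1.76 ± 0.27 (SE; edgeR adjusted p = 0.19, DESeq2 adjusted p = 9.44e-07), with 1.70 on the earlier and 1.84 on the later date. Sema4g, a semaphorin, was even within each group, at 182, 207 and 224 against 78, 83.6 and 70.5 (log2 difference 1.33 ± 0.23). Ptgr1, a prostaglandin reductase, had 578, 599.7 and 449 against 259, 252 and 192 (1.2 ± 0.21). Both had an edgeR adjusted p of 0.214 and passed in DESeq2 (0.000733 and 0.000736).

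Tppp3, a tubulin-binding protein also known from tendon sheath cells, had 445, 808 and 963 normalized counts against 230.4, 359 and 163, a log2 difference of 1.24 ± 0.19. Slco3a1, an organic anion transporter, had 164, 336 and 287 against 69, 106 and 59.6 (1.45 ± 0.22). Skint3, of a family of immunoglobulin-like skin genes, had 249.8, 242 and 254 against 120.1, 51 and 113 (1.67 ± 0.30), with 1.09 on the earlier and 2.24 on the later date. Each of the 3 was higher in 3 of 3 intermediate digits than in any non-regenerative digit, as were 1179 of the 13024 genes tested. Their DESeq2 adjusted p were 8.33e-05, 0.000143 and 0.000394.

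The higher genes included Lmod1 and Fhl1, both known from muscle. Lmod1, which nucleates actin filaments in smooth muscle, had 78.9, 178 and 224 normalized counts against 23.3, 56.3 and 10.8, a log2 difference of 1.98 ± 0.34 (edgeR adjusted p = 0.214, DESeq2 adjusted p = 0.000307), and the later digits were also higher than the earlier ones by 1.49. Fhl1, a LIM-domain protein of muscle, had 188, 175 and 298 against 59.2, 73.9 and 46.1 (1.75 ± 0.29, DESeq2 adjusted p = 0.000257). Of 13 smooth muscle and pericyte genes tested, 11 were higher, 3 of them at an unadjusted p under 0.05, and the median was 0.30 (0.04 on the earlier and 0.61 on the later date, -0.029 without the 68% digit). Acta2, the smooth muscle actin, had 826, 772 and 962 against 783, 564 and 660.1 (0.41 ± 0.19, edgeR adjusted p = 0.488). At 24 hours the 3 measured genes of skeletal muscle fibres had a median of 0.34, none at an unadjusted p under 0.05.

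Collagen genes were higher in intermediate digits on both dates. Of 18 tested, 17 were higher and 8 had an unadjusted p under 0.05, with a median log2 difference of 0.68 (0.41 on the earlier and 0.94 on the later date, 0.32 without the 68% digit). DESeq2 called 1 of them, Col1a2. Summed over the list, the level was 4728, 4248 and 4949 CPM in the 41%, 50% and 52% digits and 1866, 2418 and 3713 in the 63%, 68% and 73% digits. The groups did not overlap. Col1a1, a chain of the main bone and skin collagen, had 6919, 3448 and 4221 normalized counts against 977, 2180 and 2931 (log2 difference 1.32 ± 0.38, edgeR adjusted p = 0.307), and Col6a2, of the collagen around fibroblasts, 700.1, 849 and 1196 against 219, 435 and 497 (1.1 ± 0.31, edgeR adjusted p = 0.291).

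Of 30 genes of Wnt signalling, a pathway at work in the nail epithelium, 24 were higher and 5 had an unadjusted p under 0.05 (Wnt7b, Nkd1, Fzd2, Lgr6 and Axin2), with a median log2 difference of 0.47 (0.17 on the earlier and 0.80 on the later date). Wnt7b, a ligand, had a log2 difference of 1.18 and was the only one of the 30 called by DESeq2 (adjusted p = 0.018). Of 29 cell cycle and replication genes 26 were higher, 4 at an unadjusted p under 0.05. Their median was 0.31, with 0.45 on the earlier and 0.10 on the later date. Top2a (0.76) and Mki67 (0.64), a topoisomerase and a marker of dividing cells, had adjusted p of 0.015 and 0.042 in DESeq2. Neither changed more than 2-fold, and DESeq2 called 0 of the 29. The list also moved with date, with a median of -0.57 for later minus earlier and 15 genes at an unadjusted p under 0.05 (edgeR).

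The genes of keratinocyte migration were lower in intermediate digits. Of 20 tested, 20 were lower and 15 had an unadjusted p under 0.05, with a median log2 difference of -0.85. DESeq2 called 5 of the 20 and edgeR 0. Summed over the list, the level was 8505, 2861 and 3339 CPM in the 41%, 50% and 52% digits and 9622, 7549 and 11109 in the 63%, 68% and 73% digits. The 41% digit was thus among the non-regenerative digits, and the median was -0.36 within the earlier date, where 17 of 20 genes were lower, and -1.28 within the later date, where 20 of 20 were. The genes also moved with the date itself, with a median of -1.19 for later minus earlier and 6 genes called for it.

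Among the integrins that carry keratinocytes over the wound, Itgb6, the beta chain of a receptor that activates latent TGF-beta, had 99.6, 47.6 and 61.9 normalized counts against 207, 175 and 205. The groups did not overlap, as for 1113 of the 13024 genes tested in this direction (log2 difference -1.36 ± 0.25 SE, edgeR adjusted p = 0.214, DESeq2 adjusted p = 0.0048). Itga2, a collagen-binding chain, had 124, 40.8 and 35.3 against 218, 135 and 325 (-1.47 ± 0.28, DESeq2 adjusted p = 0.00526).

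Of 16 matrix metalloproteinases and inhibitors, 5 were higher and 11 lower, 4 of these at an unadjusted p under 0.05, with a median of -0.18 (-0.05 on the earlier and -0.23 on the later date). Plaur, the receptor of the urokinase plasminogen activator, had 762, 158 and 252 normalized counts against 796, 430.2 and 1137 (log2 difference -0.69 ± 0.25, edgeR adjusted p = 0.393). Mmp13, a collagenase, had 987, 248 and 368 against 1044, 567 and 1464 (-0.60 ± 0.22, edgeR adjusted p = 0.401). In both genes the groups overlapped and neither tool called a difference. Mmp9, a gelatinase of neutrophils, osteoclasts and keratinocytes, had 1071, 155 and 351 against 1731, 933 and 2249 (-1.37 ± 0.32, edgeR adjusted p = 0.259, DESeq2 adjusted p = 0.00997).

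**Figure D2:**
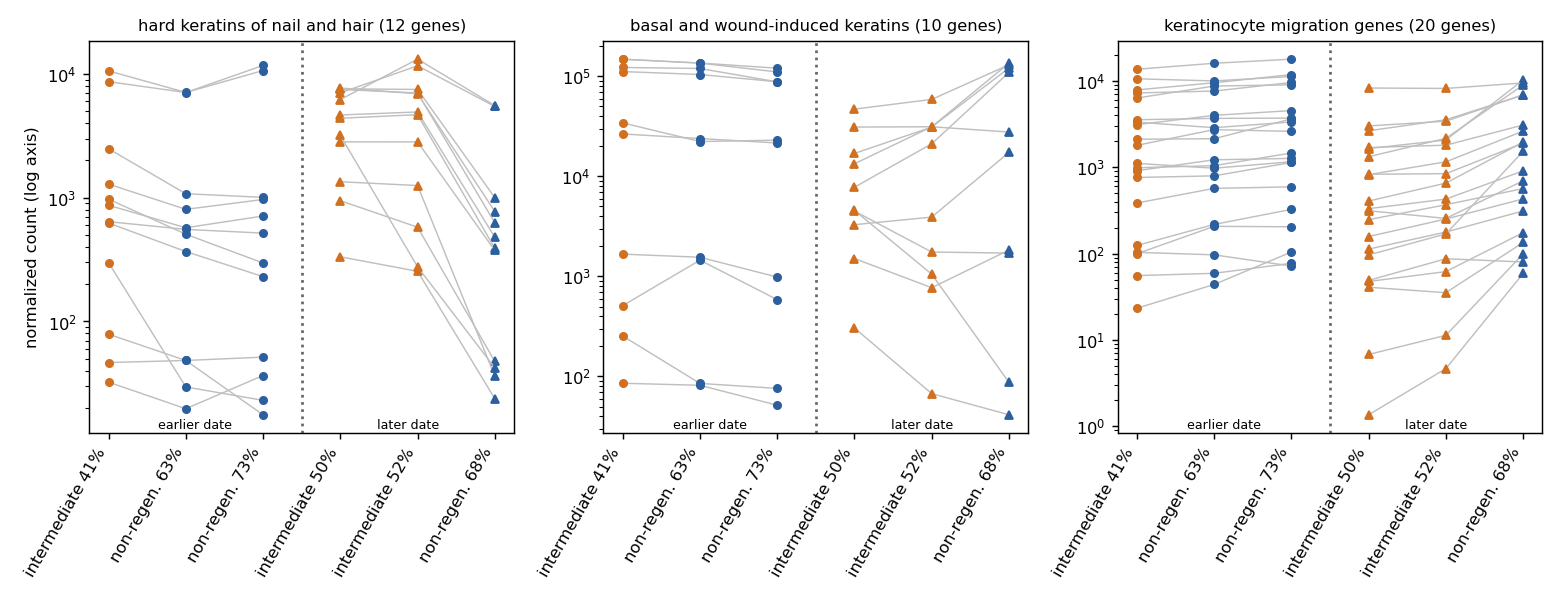
Normalized count of each measured hard keratin, basal or wound-induced keratin and keratinocyte migration gene in each digit, on log axes. Lines join the digits of a gene within a date, orange is intermediate and blue non-regenerative. On the earlier date most lines are close to level, and on the later date most hard keratins drop and most migration genes climb from the 50% and 52% digits to the 68% digit.

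The wound-induced keratins of the later intermediate digits were far below those of the other 4 digits. Krt6a had 148517, 16945 and 31105 normalized counts in the 41%, 50% and 52% digits and 135833, 121467 and 120642 in the 63%, 68% and 73% digits, a log2 difference of 0.21 within the earlier and -2.40 within the later date (-1.06 ± 0.49 over both, edgeR adjusted p = 0.493). Krt17 had 26548, 3290 and 3915 against 23888, 17370 and 21571, with 0.23 on the earlier and -2.27 on the later date. For Krt17 the dependence on date passed (-2.49, edgeR adjusted p = 0.0273), and its overall difference of -1.02 turned to 0.22 without the 68% digit. Over the 10 basal and wound-induced keratins the median was -0.33, from 0.27 on the earlier to -1.04 on the later date, and 3 were higher. Reads of Krt6a and Krt6b, near-identical copies, were split by the authors' counting and each is uncertain on its own.

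The cornified envelope genes, which build the outermost epidermis, had opposite signs on the dates. Of 32 tested, 30 were higher in the intermediate digit of the earlier date (median log2 difference 0.59) and 7 in those of the later date (median -0.89). The overall median was -0.27. A member of the family, Sprr2f, had 239, 0 and 5.99 normalized counts against 32.3, 74.8 and 5.42, with differences of 3.92 and -4.26.

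Some growth factor genes of the epidermis were also lower. Of 10 EGF receptor ligands and receptors 6 were lower, 4 of them at an unadjusted p under 0.05 (Areg, Hbegf, Epgn and Egfr), and the list median was -0.35. On the earlier date 6 of 10 were higher (median 0.085) and on the later 3 (median -0.45), and without the 68% digit the median was -0.056 with 5 higher. Areg, amphiregulin, had 299, 68 and 36 normalized counts against 406, 407 and 550.3 (log2 difference -1.79 ± 0.46 SE, edgeR adjusted p = 0.276, DESeq2 adjusted p = 0.0231). Hbegf, a heparin-binding ligand of keratinocyte migration, had 1240, 261 and 248 against 1650, 1058 and 1495 (-1.19 ± 0.32, edgeR adjusted p = 0.287, DESeq2 adjusted p = 0.0469). Ereg, epiregulin, did not go with them, at 766, 1182 and 621 against 458, 836 and 617 (0.31 ± 0.26, edgeR adjusted p = 0.698).

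Spry2, Dusp6 and Etv5, genes that receptor tyrosine kinase signals induce, were lower on both dates. Spry2, an inhibitor of FGF and EGF signals, had 229, 137 and 158 normalized counts against 452, 384 and 423. The groups did not overlap, as for 1113 of the 13024 genes tested in this direction. The log2 difference was -1.15 ± 0.19 (SE; edgeR adjusted p = 0.197, DESeq2 adjusted p = 0.00062), with -0.93 on the earlier and -1.37 on the later date. Dusp6, a phosphatase that shuts off ERK, had 509, 439 and 429 against 939, 807 and 1587 (-1.10 ± 0.23, edgeR adjusted p = 0.224, DESeq2 adjusted p = 0.00625). Of the 14 FGF ligands, receptors and feedback genes 8 were lower and 3 had an unadjusted p under 0.05 (Spry2, Dusp6 and Etv5), and the list median was -0.27.

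Genes of TGF-beta and activin signalling were mixed. Inhba, the subunit of activin A, had 313, 131 and 176 normalized counts against 496, 539 and 825 (log2 difference -1.44 ± 0.26 SE, edgeR adjusted p = 0.214, DESeq2 adjusted p = 0.00114). Tgif1, a corepressor of the pathway, had 379, 207 and 246 against 651, 476 and 611 (-0.90 ± 0.17, DESeq2 adjusted p = 0.00575). Of the 13 genes of the list 4 were higher and 9 lower, with a median of -0.15.

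The remaining genes named for the smallest p among those lower follow, and the naming rule itself required that the groups be apart on each date. Klf7, a zinc finger transcription factor, had 632, 328 and 399.5 normalized counts against 1122, 1011 and 1540 (log2 difference -1.27 ± 0.19, edgeR adjusted p = 0.19, DESeq2 adjusted p = 5.93e-05). Alox8, a lipoxygenase of the epidermis, had 109, 159 and 85.2 against 301, 428 and 306 (-1.66 ± 0.26, DESeq2 adjusted p = 0.000175). Fam167a had 739, 330.5 and 426 against 1354, 1330 and 1514 (-1.38 ± 0.21). Atp13a3, a polyamine transporter, Galnt3, which starts O-glycan chains, and Fam83b had log2 differences of -0.96 ± 0.18, -1.06 ± 0.20 and -0.79 ± 0.16, and in these 3 genes the 41% digit was the highest of the intermediate digits.

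Neutrophil genes did not differ in 1 direction. Of 18 tested 7 were higher and 11 lower, with a median log2 difference of -0.12 (-0.51 on the earlier and 0.49 on the later date), while later digits were lower than earlier ones by a median of -1.72, and without the date term the median was -0.86. The list summed to 998, 214.5 and 415 CPM in the 41%, 50% and 52% digits and 1161, 637 and 1543 in the 63%, 68% and 73% digits. The 2 members with an unadjusted p under 0.05 were Mmp9, given above, and Lcn2, a lipocalin that binds bacterial siderophores and is also made by keratinocytes, with 302, 63.9 and 112 normalized counts against 725, 476 and 502 (-1.71 ± 0.33, edgeR adjusted p = 0.224, DESeq2 adjusted p = 0.00165). Csf3r, the neutrophil growth factor receptor, had 289.9, 49 and 109.9 against 311, 63.3 and 817 (-0.35 ± 0.50, edgeR adjusted p = 0.831).

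The chemokines that draw neutrophils were lower, 7 of 7, with a median of -0.53 and 3 at an unadjusted p under 0.05. On the later date 2 of 7 were higher, and without the 73% digit 3 of 7 were higher and the median was -0.15. Cxcl1 had 1769, 903 and 688 normalized counts against 1818, 2858 and 2886 (log2 difference -1.13 ± 0.31, edgeR adjusted p = 0.297), and Cxcl2 1813, 452 and 970.2 against 1923, 587 and 2632 (-0.03 ± 0.31, edgeR adjusted p = 0.983). Cxcl1 was lower in 3 of 3 intermediate digits than in any non-regenerative digit, and Cxcl2 followed the date.

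Macrophage identity genes were higher in 14 of 18 cases, with a median of 0.50 (0.12 on the earlier and 0.91 on the later date, -0.09 without the 68% digit) and 1 at an unadjusted p under 0.05, Apoe. Their summed level was 730 to 1204 CPM in intermediate and 653 to 842 in non-regenerative digits. Genes that M1 macrophages of the same series expressed above unstimulated M0 macrophages had a median of -0.07 over 2151 genes tested (72 higher and 183 lower at an unadjusted p under 0.05), and those of M2 macrophages -0.09 over 1155 genes (50 higher and 101 lower). Of all 13024 genes tested, 644 (4.94%) were higher and 696 (5.34%) lower at that p. The 2 lists share genes, as 1632 of the 2151 were on the M1 list only. Arg1, the arginase of M2 macrophages that keratinocytes also express, had 1518, 1247 and 677 normalized counts against 1163, 2105 and 1257 (-0.41 ± 0.32, edgeR adjusted p = 0.681), and its difference turned to 0.32 without the 68% digit. Nos2, the inducible nitric oxide synthase of M1 macrophages, was not detectable as different at this depth, with expected counts of 0, 2 and 0 against 0, 1 and 0.

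Bmp2, a bone morphogenetic protein of digit regrowth, was at 144, 165 and 118 normalized counts in the 41%, 50% and 52% digits and at 134, 125 and 184 in the 63%, 68% and 73% digits. The groups overlapped, and the log2 difference was 0.01 ± 0.26 (SE; edgeR adjusted p = 0.989). Over 16 BMP ligands and antagonists 10 were higher and 6 lower, with a median of 0.12. Msx1, a homeobox gene of the nail bed and of the regrowing digit, had 42.7, 53 and 89.2 against 16.1, 19.4 and 28.5 (1.42 ± 0.50, edgeR adjusted p = 0.384, DESeq2 adjusted p = 0.214). The groups did not overlap in Msx1, as for 1179 of the 13024 genes tested in this direction.

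Genes that follow the course of healing were set beside the comparison through 2 lists made from non-regenerative digits at 12 hours and 3 days alone. Each list holds the 200 genes of smallest p (edgeR with date as a term) that were more than 2-fold higher at 1 of these times. Of the 200 genes higher at 12 hours, 190 were lower in intermediate digits, and 93 had an unadjusted p under 0.05, all 93 of them lower. The median log2 difference of the list was -0.58 (-0.23 on the earlier and -0.90 on the later date). Of the 198 tested genes higher at 3 days, 162 were higher in intermediate digits, and 54 had an unadjusted p under 0.05, 52 higher and 2 lower. The median of the list was 0.41 (0.33 and 0.51). The early list shared 9 of its genes with the 20 genes of keratinocyte migration and the later one 12 of its genes with the 18 collagens, so the lists are not independent of those. The 3 digits at 12 hours carry earlier dates and 1 of the 3 at 3 days a later one, and at 24 hours the early list also moved with date (median -0.57 for later minus earlier, 97 genes at an unadjusted p under 0.05, 6 called). Summed, the early list stood at 39018, 15490 and 17550 CPM in the 41%, 50% and 52% digits and at 42232, 38150 and 48003 in the 63%, 68% and 73% digits. For this list the non-regenerative range was 39722 to 54286 at 12 hours and 15551 to 17249 at 3 days. The later list stood at 32810, 48776 and 38302 CPM in the intermediate and at 26206, 47152 and 21008 in the non-regenerative digits, and its range was 19430 to 23304 at 12 hours and 53893 to 65842 at 3 days. The groups overlapped in it. The later intermediate digits were thus near the 3 days range in the early list but below it in the later list. The 41% digit was near the 12 hours range in the early list but above it in the later list. Low sums of the early list also occurred at and soon after the cut. They were 12876 to 14698 in intermediate digits at 0 hours and 16062 to 24231 in non-regenerative digits at 3 hours. The later list at 0 hours stood at 30796 to 45402.5 in intermediate and 30666 to 61031 in non-regenerative digits. Which stage of healing these sums reflect was not tested.

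**Figure D3:**
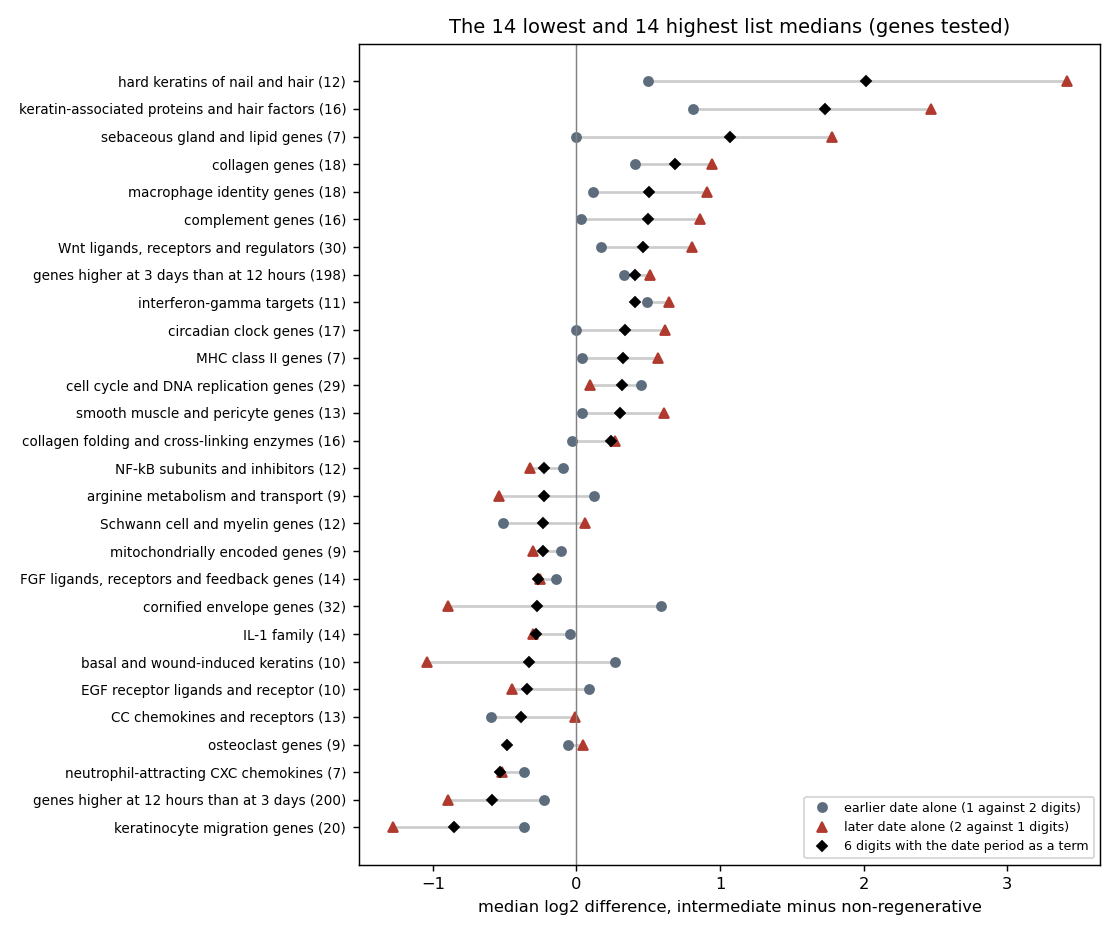
Median log2 difference, intermediate minus non-regenerative, of the 14 lowest and 14 highest gene lists with at least 7 genes tested. Diamonds are the fit over 6 digits with the date as a term, circles the earlier and triangles the later date alone. Hard keratins run from 0.50 to 3.41 and keratinocyte migration genes from -0.36 to -1.28 between the dates.

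Across the genome, the differences of the earlier and of the later date, which share no digit, were weakly related: Spearman's rho was 0.17 over 10211 genes with a mean normalized count of at least 50, a description across genes that are not independent. Of the 100 genes highest on the earlier date 69 were higher on the later date (median log2 difference 1.51 on the earlier and 0.63 on the later), and of the 100 highest on the later date 75 were higher on the earlier (2.93 and 0.47). Of the 100 lowest on the earlier date 40 were lower on the later date (-1.55 and 0.12), and of the 100 lowest on the later date 57 were lower on the earlier (-2.27 and -0.12). Over all 10211 genes 4835 were higher on the later and 5190 on the earlier date. For 25 genes, 0.192% of those tested, the group difference depended on the date at an adjusted p under 0.05. The 41% digit is the only intermediate digit of its date and the 68% digit the only non-regenerative one of its date, so a dependence on date and the state of these single digits cannot be told apart.

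**Figure D4:**
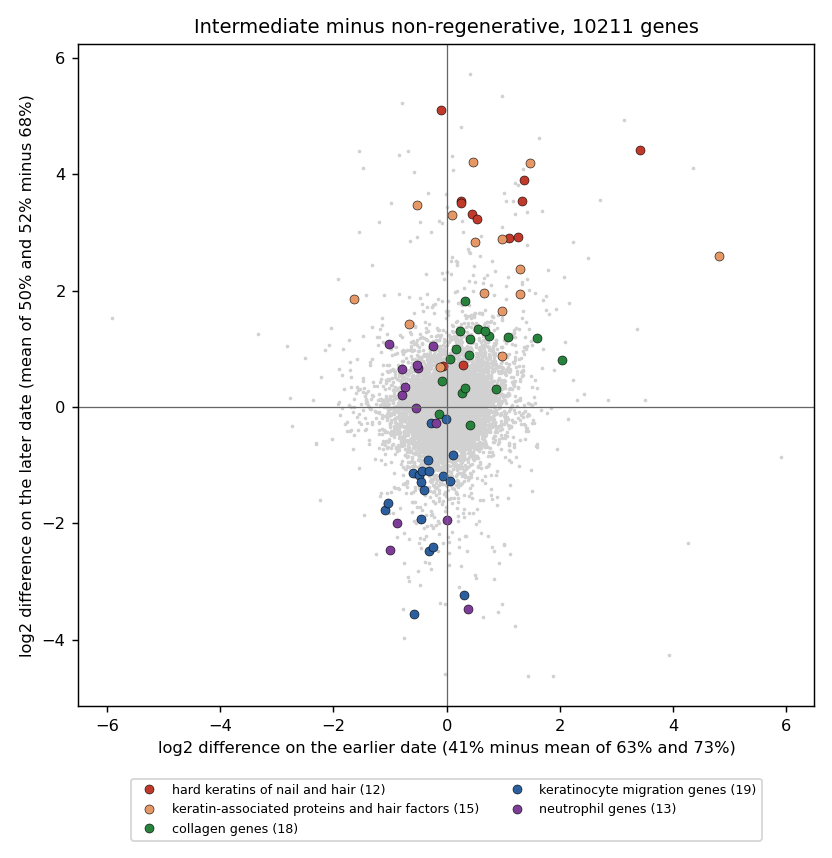
Log2 difference within the earlier date (x axis) against that within the later date (y axis) for 10211 genes, with members of 5 lists in colour. Hard keratins and collagens lie mostly to the upper right and migration genes to the lower left, and both spread further along the later date.

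At 0 hours, when the tissue was taken at amputation, 0 genes passed between 3 intermediate and 3 non-regenerative digits in edgeR (513 at an unadjusted p under 0.05), and 0 genes passed for a difference at 24 hours that was not that at 0 hours (962 at an unadjusted p under 0.05, 0 also without the date term). Among the 24 genes named by smallest p, the lowest adjusted p for that difference was 0.635 (edgeR). Summed hard keratins ranged at 0 hours from 310 to 5641 CPM in non-regenerative and from 2484 to 5639 in intermediate digits, a wider spread than that between the groups at 24 hours (1961 to 3478 and 3523 to 7932). Of the 12 hard keratins 8 were already higher in intermediate digits at 0 hours, with a median log2 difference of 0.57 and 4 genes at an unadjusted p under 0.05. Krt35 was among the higher ones, with a log2 difference of 2.21 at 0 hours (3 digits each, edgeR adjusted p = 1.0). The keratinocyte migration genes were more even at 0 hours, at 2455 to 2564 in intermediate and 2134 to 2821 in non-regenerative digits. In non-regenerative digits they stood at 2945 to 3842 at 3 hours, 4997 to 8132 at 6 hours, 7713 to 11454 at 12 hours and 2838 to 4515 at 3 days. The 50% and 52% digits at 24 hours (2861 and 3339) thus lay above the 0 hours range and within that of 3 days. The 52% digit also lay within the range of 3 hours, and the 50% digit just below it. The 41% digit (8505) lay within the ranges of 12 and 24 hours.

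**Figure D5:**
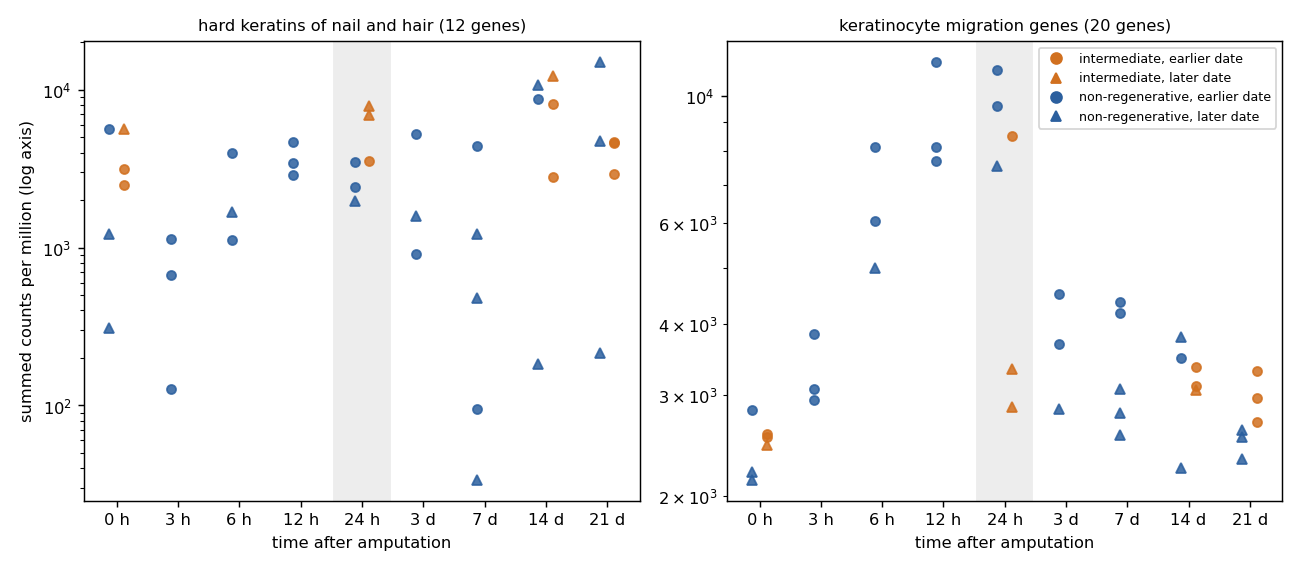
Summed CPM of 12 hard keratins and 20 keratinocyte migration genes in each of the 41 digits by time after amputation, on log axes, with 24 hours shaded. Circles are earlier and triangles later dates, orange is intermediate and blue non-regenerative. The later intermediate digits at 24 hours have the highest keratin sums of that time (6963 and 7932) and the lowest migration sums (2861 and 3339).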

How the data were processed

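Per the study's methods and the submitters' processing notes, single-end reads of poly(A) RNA (LM-Seq libraries) were base-called with CASAVA and assigned to mouse genes (mm10) with RSEM 1.2.3. The authors deposited the expected counts of 21954 genes without normalization. A second table of signal held TPM that the authors scaled by median-by-ratio normalization, used here only for the limma alternatives on TPM. Distances were taken from log2 CPM of the filtered counts. RSEM divides reads shared by near-identical genes. Dates had replaced 26 gene names of the digits, which were restored.

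Expected counts were rounded and fitted with edgeR 4.0.16 in R 4.3.3 (filterByExpr, TMM, quasi-likelihood test) with label date period and group as terms. Calls required a p of under 0.05 after Benjamini-Hochberg adjustment and a mean normalized count plus 1 that changed more than 2-fold. The study used EBSeq with no covariate. The fit with a term for a group difference depending on date had 2 residual degrees of freedom, and lone digits were assumed to vary like the others. DESeq2 1.42.0, limma 3.58.1, no date term, other filters and scalings, all 41 digits, level as a number and leaving out each digit were alternatives. Normalized counts are counts divided by TMM-scaled library size, ± is the SE of a log2 difference, and depth limits genes of low count. The tests were checked on simulated data. With 3 digits against 3, no exact two-sided permutation test can go below 0.1, so none was used.

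Named genes were the 12 of smallest p in each direction with a mean of at least 50 normalized counts, more than 2-fold change and each intermediate digit beyond each non-regenerative digit of its date, without placeholder names, plus 6 fixed genes (Bmp2, Arg1, Nos2, Msx1, Krt17 and Mmp13) and members of the lists. Gm11567 and Sprr2f fall outside it and were chosen after their values were seen, as were the genes named for dependence on date. The members, lists and tests were chosen with earlier results of these data known. Lists are described by counts and medians only. Some genes of the lists are not reported here by name. M1 and M2 lists are genes called above M0 macrophages by the same rule.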

Additional observations from a re-analysis of the deposited data

Results flagged for a closer look

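At 24 hours, the group difference (intermediate minus non-regenerative) depended on the label date in 25 genes (edgeR quasi-likelihood, adjusted p under 0.05 for the term date by group), of which 13 were more positive on the later date and 12 more negative. This term was added after the data had been seen, and it rests on 1 intermediate digit of the earlier and 1 non-regenerative digit of the later date. Of the 25 genes, 6 are hard keratins or keratin-associated genes of the lists, and 6 of these 6 were more positive on the later date. On the log2 scale the term was 5.26 for Krt35, 3.29 for Krt33b, 3.78 for Krtap11-1 and 2.88 for Krt31. It was 5.93 for Selenbp1, a selenium-binding protein with 7.76, 299 and 309 normalized counts in the 41%, 50% and 52% digits and 23.3, 15.8 and 27.1 in the 63%, 68% and 73% digits. It was 7.96 for Gm10184, a gene with a placeholder name, with 5.18, 231 and 235 against 314, 79.2 and 589.6.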

How the results depend on the processing

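No paired analysis was possible because the digits carry no replicate numbers and their animal marks are not shared across groups within a date. The call of 1 gene became 0 without the date term, with limma on log2 CPM and with limma on log2(normalized TPM + 1), 128 with DESeq2, 155 with DESeq2 without the date term (added after seeing the data) and 92 of 17819 genes without the low-count filter, and leaving out 1 digit at a time gave 0 to 238. It was 1 under DESeq2 size factors, a filter of 1 CPM, adjusted p only, all 41 digits with or without date, level as a number and log2(normalized TPM + 0.1), but a count does not say which gene: Gm11567 was not called with all 41 digits and date (adjusted p = 1.0), and the gene called for level as a number was a lower one. The 157 genes called for date became 463 with DESeq2. Bmp2 turned from a log2 difference of 0.01 to -0.059 without the date term and -0.029 in the fit of 41 digits, and ran from -0.15 (without the 68% digit) to 0.16 (without the 41% digit) when single digits were left out. In the same way Arg1 ran from -1.15 without the 41% digit to 0.32 without the 68% digit, and Krt17 from -2.28 to 0.22. The 24 genes named by smallest p kept their direction in each alternative run on them, and 24 passed in DESeq2 and 14 without the 41% digit. Their naming required the groups to be apart on each date, so a kept direction was largely fixed in advance. The alternatives also used the same digits, so these counts are no independent support. Of 68 list medians, 19 changed sign without the 68% digit, 10 without the 41% digit, 6 without the date term and 0 under DESeq2 size factors. Without the 68% or the 41% digit the groups are compared within 1 date only, so those changes largely restate the differences between the dates. The cause of these changes was not tested.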

Other observations

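Circadian clock genes were mostly higher in intermediate digits at 24 hours, 11 of 17, with 5 higher and 1 lower at an unadjusted p under 0.05 and a median log2 difference of 0.34 (-0.00 on the earlier and 0.61 on the later date). Per2, a repressor of the clock, had a log2 difference of 0.79 (DESeq2 adjusted p = 0.039), and Clock, an activator, -0.46. With the 2-fold rule DESeq2 called 0 of the 17. The hour of day at which tissue was taken is not given in the sources used here.

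Type I interferon-stimulated genes had a median of 0.19 over 18 genes, from -0.68 on the earlier to 0.79 on the later date, with 0 at an unadjusted p under 0.05. Complement genes were higher in 14 of 16 cases (median 0.50), with a median of 0.03 on the earlier and 0.86 on the later date and 0.0045 without the 68% digit, where 8 were higher. Mitochondrially encoded genes were lower in 9 of 9 (median -0.24), with 0 of them called.

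Genes with the strongest date differences included Hmgn5, a nucleosome-binding protein, with 546, 3822 and 5673 normalized counts in the 41%, 50% and 52% digits and 287, 2292 and 264 in the 63%, 68% and 73% digits (later minus earlier 3.09 on the log2 scale, edgeR adjusted p = 0.00125). These genes were named after their values were seen.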
